A study of Homo sapiens with 18 samples.

Results

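The Notch receptors *NOTCH1*, *NOTCH2* and *NOTCH3*, the ligands *DLL1*, *DLL3*, *DLL4*, *JAG1* and *JAG2*, and the Fringe genes *LFNG* and *MFNG* were followed in human pancreatic progenitors reseeded on a defined matrix. These 10 genes were taken by symbol from the 21944 genes of the deposited table, and all 10 were listed at 3, 6 and 24 h. Progenitors at day 19 (D19 PPs) were detached with accutase and plated in coated wells on fibronectin (FN) or on laminin-411 (LN411), a laminin isoform, without any genetic change between groups. Bulk polyA RNA was sequenced from 18 samples, with 3 in each of the 6 combinations of FN or LN411 with 3, 6 or 24 h. The sample labels name the line HUES4, while their growth notes and the study's legend name NGN3-GFP, a *NEUROG3* reporter line derived from SA121, so that the labels disagree on which human embryonic stem cell line was used.

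The table gives 1 level per gene, the mean over all 18 samples of read counts divided by each library's size factor, referred to as the mean normalized count. The level of a gene carries no error, does not separate FN from LN411 or the times from each other, and was the same for a gene at 3, 6 and 24 h to within a relative gap of 4.89e-07. The remaining columns are the authors' own comparisons of LN411 with FN and were not used, so that no effect of the matrix or of time is given for any gene. Values per sample were not analysed here. The depth of single libraries is therefore unknown, and no test between groups was run. In bulk samples, fewer cells of a type and less RNA per cell cannot be told apart.

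Notch receptors are single-pass membrane proteins that are cut after a ligand on a neighboring cell binds them, and the released intracellular part enters the nucleus and joins the DNA-binding protein RBPJ. Delta-like and Jagged proteins are the ligands, and Fringe enzymes add sugars to the receptor that shift its response between Delta-like and Jagged ligands. In the developing pancreas, Notch signaling keeps progenitors from entering the endocrine lineage, and its target HES1 represses *NEUROG3*, the gene that starts endocrine specification.

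*JAG1* was the most abundant of the 10 genes, followed by the 3 receptors, with the other ligands and both Fringe genes far below. *JAG1* had a mean normalized count of 36903, *NOTCH2* of 17755, *NOTCH1* of 13906 and *NOTCH3* of 13000. Next came *DLL1* with a mean normalized count of 1077, *DLL4* with 472 and *JAG2* with 414.5. The lowest mean normalized counts were those of *LFNG* with 280.6, *DLL3* with 137 and *MFNG* with 100.8. Over all 21944 genes the median was 297.1, and 7 of the 10 lay above it. By mean normalized count, which is not divided by length, *JAG1* ranked 159th among all genes. The receptors ranked between 459 and 679, above at least 96.9% of genes. *DLL1* was above 64.7% of genes, *DLL4* above 54.4% and *JAG2* above 53.0%. *LFNG* (49.5%), *DLL3* (43.4%) and *MFNG* (40.3%) lay below the middle of the distribution. These shares depend on the genes they are set against. Against the 15355 protein-coding genes alone, *DLL4* stood above 36.2%, *JAG2* above 34.5%, *LFNG* above 30.2% and *MFNG* above 21.1%, while *JAG1* stood above 99.0%. *DLL3* stood above 23.8% of the protein-coding genes. Only 5 of the 10, *JAG1*, the receptors and *DLL1*, lay above the median of the protein-coding genes. Of these 5, *DLL1* lay practically at that median, above 50.02% of the protein-coding genes. The same 5 lay above the median of genes with a mean of at least 10, where *DLL1* stood above 59.9%. Per kilobase over all genes 7 of the 10 lay above the median, with *LFNG* in place of *JAG2*. On that scale *JAG1* ranked 411th, and the receptors ranked between 1506 and 2071, above at least 90.5% of genes with annotated exons.

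**Figure D1:**
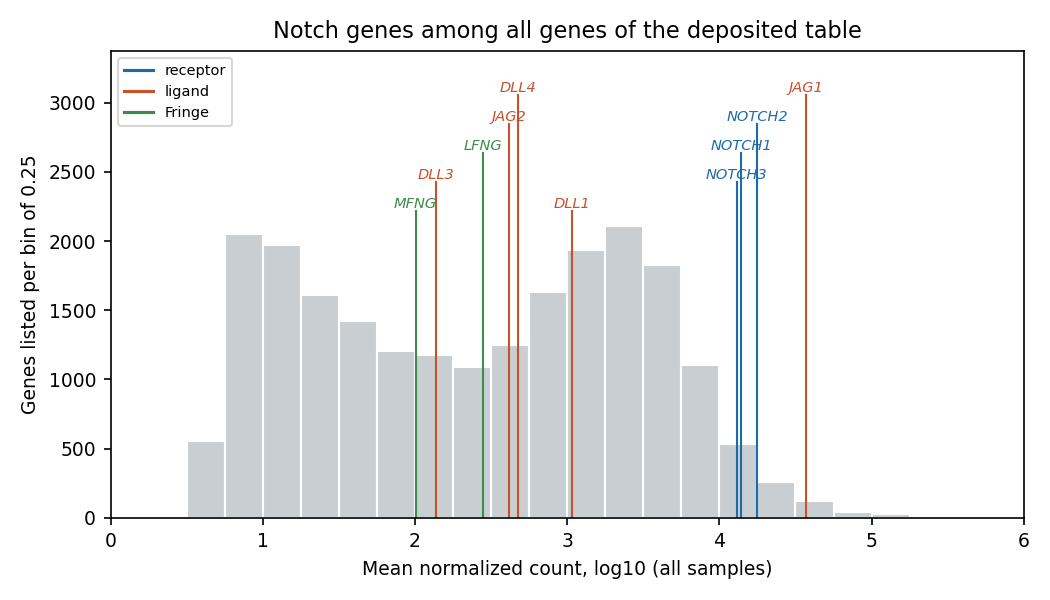
Histogram of the mean normalized count over all samples (x axis, log10) for the 21944 genes of the deposited table, with the number of genes per bin on the y axis and a vertical line for each of the 10 genes (blue, receptors; orange, ligands; green, Fringe genes; line heights only separate the names). *JAG1* and the 3 receptors stand in the upper tail, and the other 6 genes lie between 100.8 and 1077.

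Longer transcripts give more reads, so levels of different genes were compared per kilobase of their annotated exons. On this scale *JAG1* had 3969 mean normalized counts per kilobase, *NOTCH3* 1382, *NOTCH1* 1110 and *NOTCH2* 1060. *DLL1* had 282.1 mean normalized counts per kilobase, *DLL4* 99.3, *LFNG* 81.6, *JAG2* 64.8, *DLL3* 52.3 and *MFNG* 33.2. The level of *JAG1* per kilobase was 2.87 times that of *NOTCH3*, the next gene in this order. From *NOTCH2* to *DLL1* the level per kilobase fell by a factor of 3.76, and from *DLL1* to *DLL4* by a factor of 2.84. Neighboring genes elsewhere in the order differed by a factor of at most 1.58. Without values per sample it cannot be said of any of these steps, large or small, whether it exceeds the spread between samples. *JAG1* in the first place, the 3 receptors in the next 3 places and *DLL1* in the fifth were kept with each of 4 definitions of gene length. The order within the receptors was not kept, since *NOTCH3* was first of the 3 per kilobase of exons and *NOTCH2* first with the other 3 definitions.

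**Figure D2:**
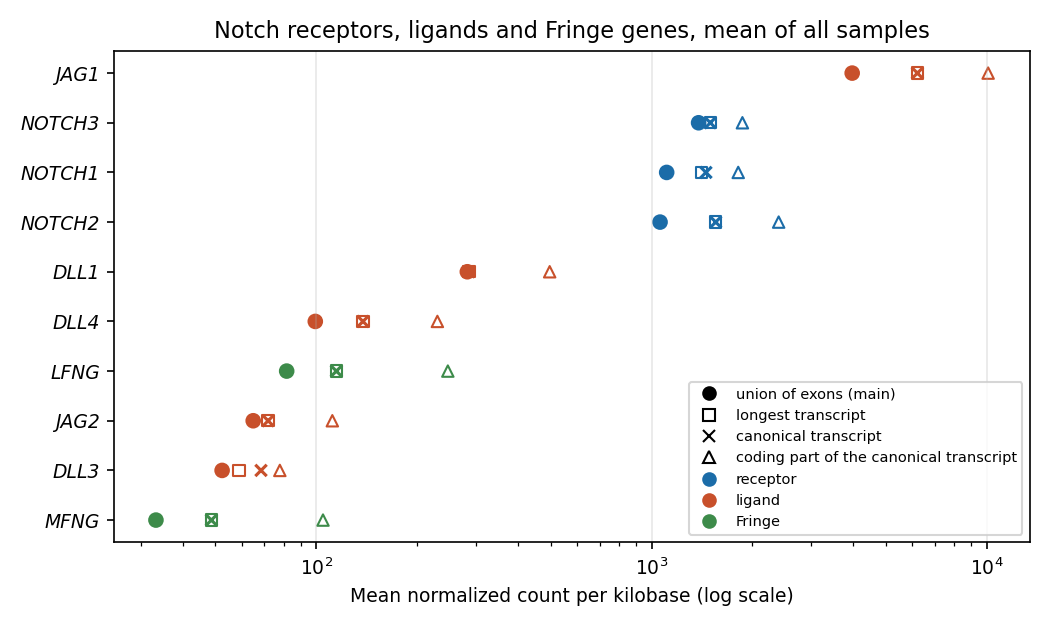
Mean normalized count per kilobase (x axis, log scale) for each gene (y axis), with filled circles for the union of all annotated exons and open or crossed marks for 3 other gene lengths (color gives the role). *JAG1* is the highest with every length, the 3 receptors follow, and among the lowest 5 genes *DLL4* changes places with *LFNG*, and *DLL3* with *MFNG*, with the coding length alone.

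The receptors were expressed at similar levels. *NOTCH1* (ENSG00000148400) lies on the minus strand of chromosome 9 of GRCh38 from 136494433 to 136546048, and its canonical transcript has 34 exons that encode 2555 residues. *NOTCH2* (ENSG00000134250) lies on the minus strand of chromosome 1 from 119911553 to 120100779, with 34 exons and 2471 residues. *NOTCH3* (ENSG00000074181), a receptor best known from vascular mural cells, lies on the minus strand of chromosome 19 from 15159038 to 15200995, with 33 exons and 2321 residues. The highest receptor level per kilobase was 1.30 times the lowest, against 75.8 times for the ligands and 2.45 times for the Fringe genes. *NOTCH4*, the fourth receptor and known mainly from endothelium, is not among the genes of the table. Because *NOTCH3* is also a gene of mural cells, a list of 7 mesenchymal and mural genes was read beside it. There were 6 of them listed, with mean normalized counts from 113.8 for *PDGFRB* to 4091 for *COL1A1*, a collagen chain, and *DCN* was not listed. By this measure 4 of the 6 lay above the median of all genes, with *ACTA2* (298.8) and *COL3A1* (320.1) practically at it. Only *COL1A1* was higher than *DLL1*, which lay practically at the median of protein-coding genes. Per kilobase they ran from 15.9 for *PDGFRB* to 454.2 for *COL1A1*, against 1382 for *NOTCH3*. The part of such cells in the level of *NOTCH3* was not tested.

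The level of *NOTCH2* needs care because part of its sequence is repeated elsewhere in the genome. The *NOTCH2NL* genes are human copies of the beginning of *NOTCH2*, and the STAR program counts only reads that map to a single place and overlap a single gene. Of the 34 exons of the canonical *NOTCH2* transcript, the first 4 lay mostly in 50-base windows that also occur in transcripts of other annotated genes. These 4 exons hold 1007 of the 11425 transcript bases, and 959 of the 1007 (95.2%) were in such windows. Of the other 10418 bases, 2 were. The sequences below are shown because they illustrate how closely the copies match. They are a stretch of *NOTCH2* exon 3 at chr1:120005402-120005461 of GRCh38 on the minus strand, and the best ungapped match in the canonical transcript of each copy, all read 5′ to 3′ from the GENCODE v44 transcripts. Capitals mark the positions at which at least 1 copy has another base. This stretch of 60 bases was chosen as the one with the most differences in the exon.
NOTCH2: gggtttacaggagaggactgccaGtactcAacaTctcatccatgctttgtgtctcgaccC
NOTCH2NLA: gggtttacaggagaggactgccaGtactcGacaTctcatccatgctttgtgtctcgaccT
NOTCH2NLB: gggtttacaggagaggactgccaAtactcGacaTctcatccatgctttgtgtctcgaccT
NOTCH2NLC: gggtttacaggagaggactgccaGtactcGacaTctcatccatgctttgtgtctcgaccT
NOTCH2NLR: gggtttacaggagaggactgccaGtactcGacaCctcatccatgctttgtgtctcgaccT

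Even in this stretch, *NOTCH2NLA* and *NOTCH2NLC* differed from *NOTCH2* at 2 positions, and *NOTCH2NLB* and *NOTCH2NLR* at 3. *NOTCH2NLC* (chromosome 1, 149390621 to 149471833) was the only one of these 4 copies in the table, with a mean normalized count of 16.8. Reads from the first 4 exons may be lost from the count of *NOTCH2* or assigned to a copy. These exons make up 8.81% of the transcript, and with windows of 100 bases 1.81% of all windows were repeated, against 4.86% with windows of 50. *NOTCH1*, *NOTCH3*, *DLL3*, *DLL4*, *LFNG* and *MFNG* had 0 repeated windows at either size. With windows of 50 bases, 8.6% were repeated for *DLL1*, 7.4% for *JAG2* and 4.4% for *JAG1*. With windows of 100 bases these shares were 7.4%, 6.5% and 3.6%. For these 3 genes the windows were shared with genes whose exons overlap theirs, as given below.

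**Figure D3:**
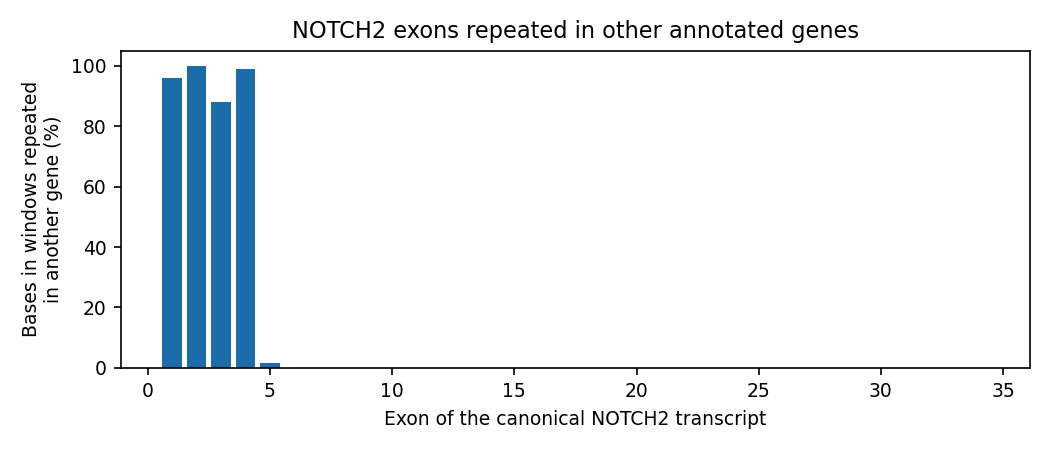
Share of the bases of each *NOTCH2* exon (y axis, percent) that lie in 50-base windows also found in transcripts of other annotated genes, for exons 1 to 34 of the canonical transcript (x axis). Exons 1 to 4 reach 96.0%, 100%, 88.1% and 98.8%, exon 5 has 1.63%, and the later exons have 0.

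Among the ligands, *JAG1* alone made up most of the signal. *JAG1* (ENSG00000101384) lies on the minus strand of chromosome 20 from 10637684 to 10673999 and encodes a protein of 1218 residues with 26 exons. It held 88.8% of the summed level per kilobase of the 5 ligands. Its level per kilobase was 14.1 times that of *DLL1*, the next ligand, and this ratio was between 14.1 and 21.8 over the 4 definitions of gene length. *JAG2* (ENSG00000184916, chromosome 14, minus strand, 105140982 to 105168824), which encodes the other Jagged ligand and has 1238 residues, was far lower. The ratio of *JAG1* to *JAG2* per kilobase was 61.2, with a range of 61.2 to 90.5.

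*DLL1* encodes the Delta-like ligand that has been linked to endocrine progenitors, and it was the most abundant of the 3 Delta-like genes. *DLL1* (ENSG00000198719, chromosome 6, minus strand, 170282206 to 170306565) had a level per kilobase 2.84 times that of *DLL4* (range 2.07 to 2.84) and 5.39 times that of *DLL3* (range 4.17 to 6.38). *DLL4* (ENSG00000128917) lies on the plus strand of chromosome 15 from 40929340 to 40939073 and is a ligand typical of arterial endothelium. Genes of endothelium were lower than *DLL4*, with mean normalized counts from 5.12 for *CDH5*, which was listed at 1 time, to 167 for *TIE1*. All 5 endothelial genes lay below the median of all genes. Per kilobase they ran from 0.851 for *CDH5* to 24.9 for *TIE1*, against 99.3 for *DLL4*. The part of endothelial cells in the level of *DLL4* was not tested. *DLL3* (ENSG00000090932, chromosome 19, plus strand, 39498895 to 39508481) encodes a divergent Delta-like protein that acts inside the cell, and its mean normalized count of 137 was the lowest of the ligands.

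The annotated exons of 3 ligand genes overlap those of another gene. *DLL1* shares 370 exon bases (9.69% of its exons) with *FAM120B* on the opposite strand, which had a mean normalized count of 502.3. For *JAG1* the overlap with an antisense long non-coding RNA is 306 bases (3.29%), and for *JAG2* the overlap with a long non-coding RNA on the same strand is 469 bases (7.33%). Neither of these non-coding genes was listed. The sources used here do not say whether the counting used the strand. Because only reads that overlap a single gene are counted, reads in the bases shared by *DLL1* and *FAM120B* may have been left out of both counts. For *JAG1* and *JAG2* the same may hold if the annotation of the authors held these non-coding genes, for *JAG2* also in counting that used the strand.

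Both Fringe genes were low, and the third member of the family was higher. *LFNG* (ENSG00000106003, chromosome 7, plus strand, 2512529 to 2529177) and *MFNG* (ENSG00000100060, chromosome 22, minus strand, 37469063 to 37486393) encode glycosyltransferases of 379 and 321 residues. *LFNG* had 2.45 times the level of *MFNG* per kilobase, with a range of 2.36 to 2.45. *RFNG*, the remaining Fringe gene, had a mean normalized count of 1649 and a level per kilobase of 426.6. This was 5.23 times the level of *LFNG* (range 4.62 to 7.70) and 12.8 times that of *MFNG* (range 10.9 to 18.2). Of the summed level per kilobase of the 10 genes, the ligands held 54.9%, the receptors 43.7% and the Fringe genes 1.41%. Without division by length, the receptors held 53.1% and the ligands 46.4%, so that the order of these classes depends on the scale.

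*DLK1* and *DLK2* encode Delta-like proteins that lack the domain through which the canonical ligands bind Notch. *DLK1* had a mean normalized count of 364285, which was the second highest of all 21944 genes and 0.685% of the summed mean normalized counts. Its level per kilobase ranked 20th among genes with annotated exons. That level was 17.5 times that of *JAG1*, with a range of 12.6 to 31.4. *DLK2* was low, with a mean normalized count of 216.2 and 96.7 counts per kilobase.

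The genes that process ligands and receptors mostly lay above the middle of all genes. By mean normalized count 15 of the 16 listed here were above the median of 297.1, with *NEURL1B* (170.9) as the exception. Per kilobase *PSEN2* was also below the median of 76.2. The median of protein-coding genes alone is higher, practically at the 1077 of *DLL1*. *EOGT* (807.2) and *APH1B* (759.7), like *NEURL1B*, lay below that level. Mind bomb and Neuralized are ubiquitin ligases that activate ligands by driving their endocytosis, and all 4 of their genes were listed. *MIB1* had 793.9 mean normalized counts per kilobase and *MIB2* 508.5, against 210.8 for *NEURL1* and 26.6 for *NEURL1B*. *POFUT1*, whose product adds the fucose that Fringe enzymes extend, had 1300 mean normalized counts per kilobase, *POGLUT1* 569.7 and *EOGT* 150.5. Among the proteases that cut the receptor outside the membrane, *ADAM10* (1836 per kilobase) was higher than *ADAM17* (215.9 per kilobase), and *FURIN*, which cuts the receptor on its way to the surface, had 1884 per kilobase. The 6 genes of the gamma-secretase complex, which releases the intracellular part, ran from 70.7 per kilobase for *PSEN2* and 139.6 for *APH1B* to 1248 for *NCSTN* and 3404 for *APH1A*.

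In the nucleus, *MAML3* (432.5 mean normalized counts per kilobase) and *SPEN* (416.6 per kilobase) were the highest of the 5 genes of the RBPJ complex. *SPEN* encodes a repressor that binds RBPJ, while Mastermind-like proteins are coactivators. *RBPJ* itself had 371.6 per kilobase, and *MAML2* (174.6) and *MAML1* (38.9) were the lowest. Among 9 negative regulators, *NRARP*, itself a Notch target, was highest with 1009 per kilobase, followed by *ITCH*, a ubiquitin ligase, with 619.0 per kilobase. *DTX2* (55.3 per kilobase) and *DTX1* (3.29 per kilobase) were the lowest. Of the 7 HES and HEY genes taken here as the list of effectors, 6 were listed and *HES5* was not. *HES1* had 3910 per kilobase and *HES4* had 2466. With the union of exons as gene length *HES1* was close to the 3969 of *JAG1*, and other lengths were not compared for *HES1*. *HEY2* (153.5 per kilobase) and *HEYL* (14.5 per kilobase) were the lowest. In all 7 lists of pathway genes from ubiquitin ligases to effectors, the median gene lay above most genes by mean normalized count, with 71.1% for the effectors as the lowest of these medians, against a median of 59.5% for the 10 receptors, ligands and Fringe genes. These medians were taken over all genes, coding or not, and not over protein-coding genes alone.

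**Figure D4:**
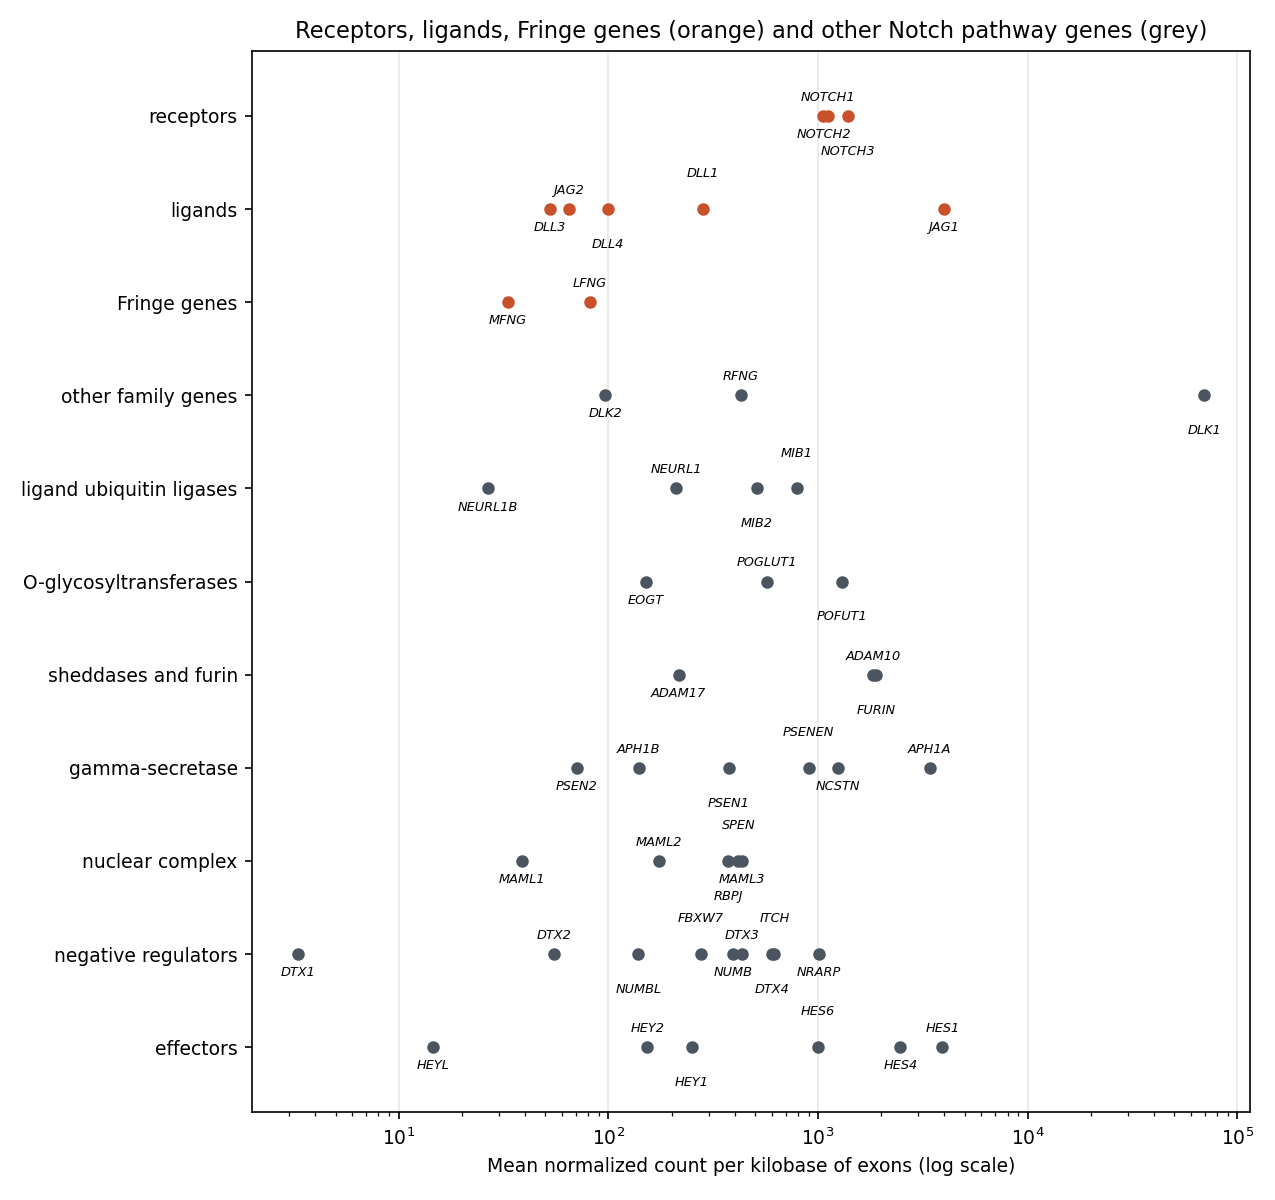
Mean normalized count per kilobase of exons (x axis, log scale) for the receptors, ligands and Fringe genes (orange) and for other genes of the Notch pathway (grey), 1 row per group and 1 point per gene. With the union of exons as gene length, *JAG1*, *HES1* and *APH1A* lie near each other at 3969, 3910 and 3404, and *DLK1* stands apart at 69427.

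The label of pancreatic progenitors was read against marker genes. Of 9 progenitor genes, 8 lay above the median of all genes, with mean normalized counts of 20672 for *SOX9*, 12933 for *PDX1* and 3040 for *NKX6-1*, while *PTF1A*, an acinar and early progenitor factor, had 12.5. The epithelial genes *EPCAM* (69597) and *CDH1* (51412) were among the highest genes, and the pluripotency genes *POU5F1* and *NANOG* and the blood gene *PTPRC* were not listed. Of 5 endocrine genes, 3 lay above the median of all genes, with mean normalized counts of 4312 for *CHGA*, 565.5 for *INSM1* and 450.8 for *NEUROG3*. *NKX2-2* (110.2) and *NEUROD1* (71.2) lay below it. The liver genes *AFP* (26676) and *ALB* (639.9) and the intestinal gene *CDX2* (3556) were also above the median. So were 4 of the 6 listed mesenchymal and mural genes, though *ACTA2* (298.8) and *COL3A1* (320.1) lay practically at the median of 297.1. Of the 6, *COL1A1* alone was higher than *DLL1*, which lay practically at the median of protein-coding genes. The labelled cell type is therefore not the sole one whose markers were detected, but these levels do not show whether separate cells of other types were present. The part of any such cells in the levels of the Notch genes was not tested.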

How the data were processed

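Bulk polyA RNA of 18 samples (6 groups of 3) was sequenced. The authors aligned reads with STAR (2.7.2d per the labels) to GRCh38.p13, counted reads per gene with STAR on GENCODE v32, and normalized and compared groups with DESeq2 (1.34.0 per the labels). The values used here, the mean normalized counts in the deposited table, are a signal that combines all samples after scaling by size factors. The other columns of the deposited table hold the authors' log2 fold changes of LN411 over FN, their standard errors, Wald statistics and p-values, and were not used. The planned count test between groups was not run, since the table analysed gives a single mean per gene over all samples and a count test needs counts for each sample. The protein comparison was not run either.

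Levels were divided by the length of the union of a gene's exons in GENCODE v44 on GRCh38, matched by Ensembl identifier for 99.6% of genes. Canonical transcripts were cut into windows of 50 and 100 bases, which were searched on both strands in transcripts of all other genes. Gene length and window functions were tested on simulated data. Alternatives were other gene lengths, a minimum mean of 10, and protein-coding genes alone. The genes named are the 10 genes, *NOTCH4*, *RFNG*, *DLK1* and *DLK2*, and the 2 highest and 2 lowest genes per kilobase of each pathway list, beside marker genes. The members and lists were chosen with earlier results of these data known. Python 3.11.15, numpy 2.4.6, pandas 2.3.3 and matplotlib 3.10.9 were used.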

Additional observations from a re-analysis of the deposited data

How the results depend on the processing

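The levels per kilobase moved with the definition of gene length, and all moved upward, since the union of exons is the longest. With the longest transcript they were 6213 for *JAG1*, 1554 for *NOTCH2*, 1498 for *NOTCH3*, 1411 for *NOTCH1*, 285.1 for *DLL1*, 137.8 for *DLL4*, 114.8 for *LFNG*, 71.8 for *JAG2*, 58.8 for *DLL3* and 48.6 for *MFNG*. The canonical transcript gave the same values except for *NOTCH1* (1453) and *DLL3* (68.4). With the coding length of the canonical transcript, which was chosen after seeing the data, they were 10099 for *JAG1*, 2395 for *NOTCH2*, 1867 for *NOTCH3*, 1814 for *NOTCH1*, 496.8 for *DLL1*, 246.8 for *LFNG*, 229.7 for *DLL4*, 111.6 for *JAG2*, 104.7 for *MFNG* and 77.8 for *DLL3*. The place in the order was kept by 7 of the 10 genes with the longest or the canonical transcript and by 3 with the coding length. Without division by length, the receptors held 53.1% of the sum, the ligands 46.4% and the Fringe genes 0.454%. The share of genes below each of the 10 genes changed by between -19.5 and -0.0980 percentage points when genes with a mean under 10 or genes that do not code for proteins were left out. No paired analysis was possible because the table analysed gives a single mean per gene over all samples, with no value for each replicate number. For the same reason, another normalization, a filter on low counts in a test and leaving out single samples were not run. The coding length from a protein table and the identity between proteins were not run because no protein table was used. The depth of the libraries is unknown, so that no error can be given for the level of a low gene such as *MFNG*.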

Other observations

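The highest mean normalized count of the table was that of *FN1*, the gene of fibronectin, with 716487. This gene was named after its value was seen, and its level does not separate cells plated on FN from cells plated on LN411.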
